A study of Mus musculus with 9 samples.

Results

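Ribosome footprints, the short mRNA fragments that translating ribosomes shield from RNase, were compared between mouse preadipocytes kept uninduced (day 0) and cells 4 days into beige adipocyte differentiation. Per the labels, the cells were cultured preadipocytes of inguinal white adipose tissue, the subcutaneous fat pad of the groin. Day 0 cells had no treatment. Day 4 cells had spent 2 days in medium with the glucocorticoid dexamethasone, the phosphodiesterase inhibitor 3-isobutyl-1-methylxanthine, indomethacin, insulin, triiodothyronine and the PPARγ agonist rosiglitazone, and the next 2 days in medium lacking the glucocorticoid, the phosphodiesterase inhibitor and indomethacin. Each day had 3 libraries, which makes 6 of the 9 libraries of the series. The other 3 were made at day 8 and entered through the choice of genes tested, the scaling and the shared estimate of spread. Strain, sex and age of the mice, and whether replicates came from separate animals or cultures, are not stated in the labels, so p-values measure the spread between these libraries. The comparison covered the 14714 genes with enough counts out of 55359 in the table, and was read mainly for transcription factors, receptors, transporters and channels, and secreted proteins rather than for the usual fat cell genes.

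Adipogenesis passes through a commitment step in which a fibroblast-like precursor leaves the cell cycle, takes down its matrix and stress fibres, and installs the regulators of the fat cell. PPARγ and C/EBPα are the best known of these regulators. A fat cell also changes what it senses and what it sends: receptors for hormones that start or restrain lipolysis, carriers for glucose, fatty acids, amino acids and glycerol, and a large secretory output toward blood and neighbouring cells. Beige adipocytes add mitochondria and can burn lipid for heat.

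Libraries held 30823028 to 38994892 counts. Within day 4, replicate 2 stood apart: among genes called higher at day 4 it was the library nearest to day 0 in 76.8%, and among genes called lower in 70.5%. Class counts are therefore also given without it, family counts where leaving out 1 library moved them by over 1.5 times, and fitted values that moved by over 1.5 times without 1 library close the paragraph they belong to. Levels are stated as CPM, each gene's counts relative to the library total after TMM scaling, listed in the order of replicates 1, 2 and 3. Calls rest on edgeR's quasi-likelihood test with Benjamini-Hochberg adjustment over all tested genes at a threshold of 0.05, and every gene said below to have risen or fallen passed it. Fold changes are fitted log2 values, day 4 minus day 0, with their standard error (SE). Over all tested genes 58.2% were called, 29.8% higher and 28.4% lower at day 4, and the libraries of both days did not overlap for 64.9%. The genes described are the largest changes of each class and family and the silent genes with the highest levels. Paralogs, partner subunits, ligands and receptors set beside them, and the silent genes of lower level, were chosen after their values were seen. Footprint counts follow both the amount of an mRNA and its translation, which cannot be told apart here. In bulk cultures a change in the number of cells that translate a gene and a change in translation per cell cannot be told apart.

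Read against that background, the classes differed in balance. Of 776 tested transcription factors 133 were higher and 273 lower at day 4 (median log2 fold change -0.27, against -0.02 over all tested genes). Of 356 receptors 86 were higher and 161 lower (median -0.53), and of 405 secreted proteins and ligands 107 were higher and 172 lower (median -0.60). Transporters and channels were even, with 160 higher and 160 lower of 454 (median -0.11). Without day 4 replicate 2 the counts were 156 higher and 293 lower for transcription factors, 87 and 175 for receptors, 108 and 218 for secreted proteins, and 169 and 180 for transporters and channels. Among the 89 tested genes of a list of known fat cell genes, 80 were higher and 1 lower (3 lower without day 4 replicate 2). The list was read beside the labels. It was chosen with earlier results of these data known, so it is no independent check of them.

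**Figure D1:**
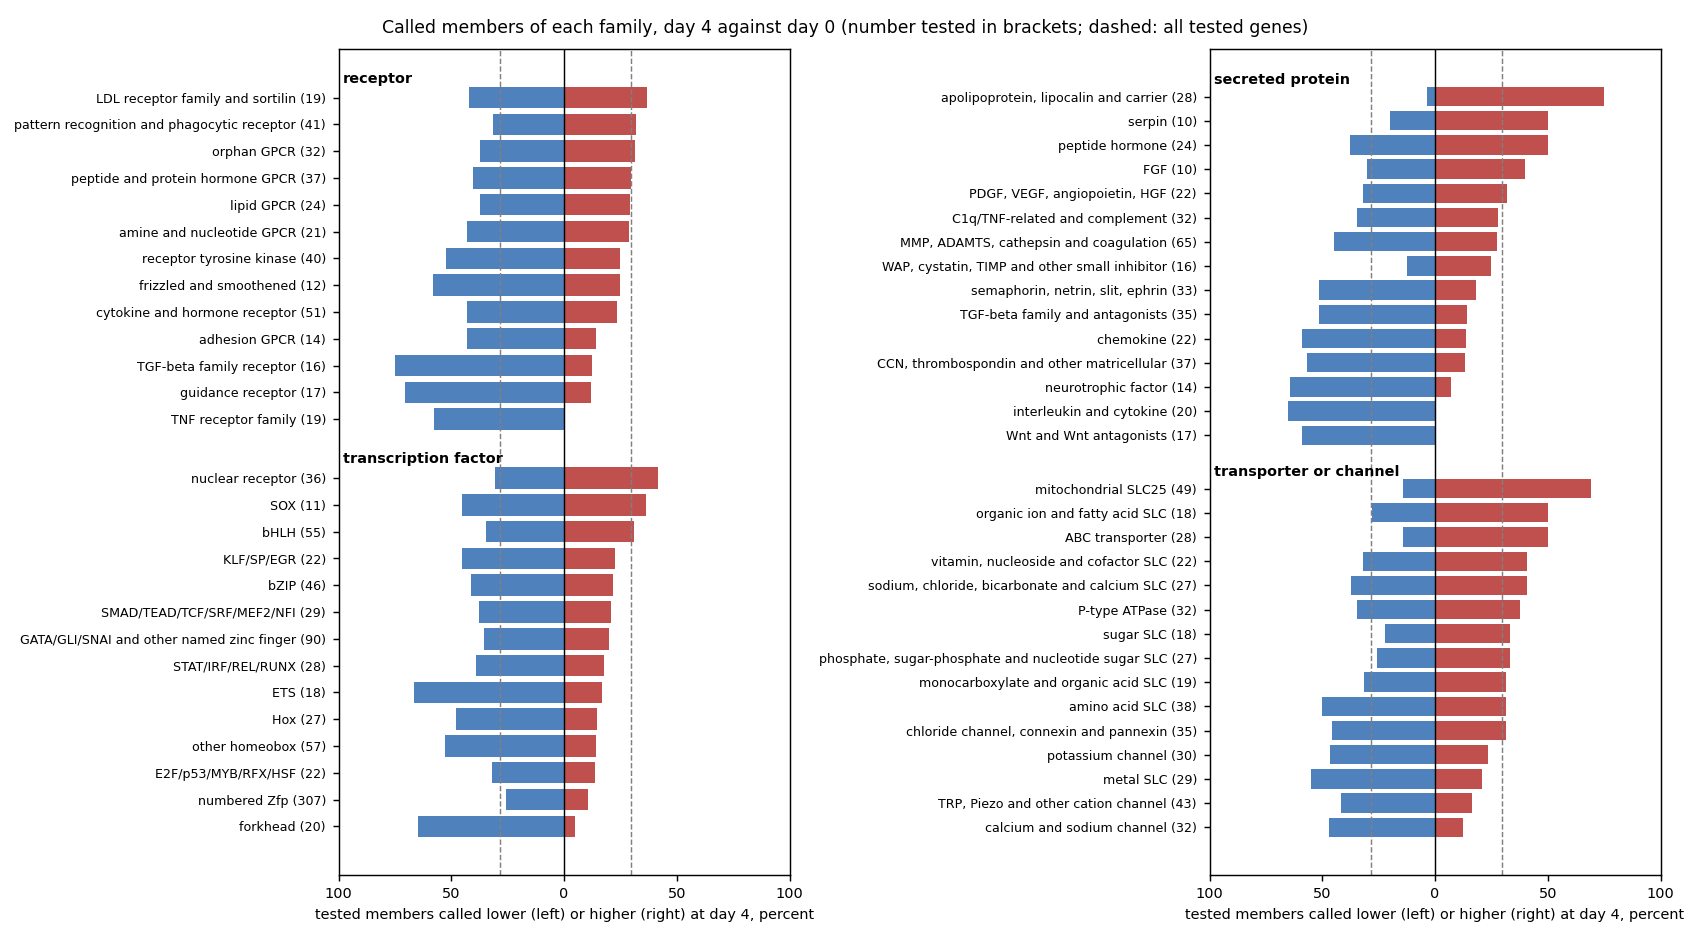
Share of tested members called higher (right, red) or lower (left, blue) at day 4 than at day 0, in percent, for each family with at least 10 tested members, with the number tested in brackets. Dashed lines mark the shares over all tested genes (29.8% and 28.4%), and the bars reach farthest right for apolipoproteins and carriers (75.0%) and mitochondrial SLC25 carriers (69.4%) and farthest left for TGF-beta family receptors (75.0%).

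More transcription factors were lower than higher, and a small group went from near 0 to clear footprint levels. Zbtb16 (ENSMUSG00000066687), the zinc finger factor also called PLZF, had 0.274, 0.371 and 0.442 CPM at day 0 and 105, 84.3 and 96.5 CPM at day 4, a log2 fold change of 8.02 ± 0.34 (edgeR adjusted p = 1.66e-07). Mlxipl (ENSMUSG00000005373), which encodes ChREBP, the glucose-responsive activator of lipogenic genes, went from 0.213, 0.217 and 0.304 to 64.7, 36.5 and 58 CPM (7.73 ± 0.37). All day 4 libraries of both genes lay more than an order of magnitude above every day 0 library. Casz1 (ENSMUSG00000028977), a zinc finger factor, rose from 0.122, 0.155 and 0.0552 to 9.1, 4.27 and 6.09 CPM (5.85 ± 0.40), and Grhl1 (ENSMUSG00000020656), a grainyhead factor known from epithelia, from 0.0305, 0.402 and 0.0828 to 7.36, 6.93 and 6.46 CPM (5.33 ± 0.50). Irf4 (ENSMUSG00000021356), an interferon regulatory factor, rose from 0.122, 0.186 and 0.0828 to 5.96, 2.59 and 5.81 CPM (5.18 ± 0.44). In Casz1 and Irf4 day 4 replicate 2 was the lowest library of its day, and it was above all day 0 libraries. Grhl1 stood at 6.82 without day 0 replicate 2 (log2 scale).

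Nuclear receptors, which bind hormones, retinoids and lipids, stood on the higher side: 15 of 36 tested members were higher and 11 lower (median log2 fold change 0.34). Rxrg, the retinoid X receptor gamma, rose from 0.0305, 0.0619 and 0.0552 to 8.17, 4.62 and 7.56 CPM (7.0 ± 0.49), while its paralog Rxrb rose by 0.73 ± 0.15. Ppara, the fatty acid sensor of oxidative tissues, rose from 0.944, 0.898 and 1.02 to 52.5, 34.6 and 57.3 CPM (5.65 ± 0.31), and Nr1h3, the oxysterol receptor LXRα, rose by 4.44 ± 0.24. Thrb, a receptor for thyroid hormone, rose by 2.26 ± 0.21. The largest fall was in Nr4a1, an orphan receptor encoded by an immediate early gene, from 31, 66.6 and 41.6 to 5.5, 7.32 and 4.2 CPM (-3.03 ± 0.30); its relative Nr4a2 was also lower (-1.63 ± 0.31). The retinoic acid receptor Rarg (-2.28 ± 0.19), the vitamin D receptor Vdr (-1.77 ± 0.41) and the progesterone receptor Pgr (-2.36 ± 0.48) fell as well. Vdr stood at -2.39 and Pgr at -3.23 without day 4 replicate 2 (log2 scale).

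Of 3 retinoid genes outside the class, 2 fell and 1 rose. Aldh1a2, the enzyme that makes retinoic acid, fell from 60.9, 95.7 and 28.2 to 2.44, 1.98 and 0.113 CPM (-5.35 ± 0.78), and Crabp2, which carries retinoic acid to the nucleus, from 18.2, 21.1 and 9.19 to 0.494, 0.22 and 0.169 CPM (-5.77 ± 0.67). Aldh1a1, a related retinaldehyde dehydrogenase, rose (2.42 ± 0.27). The groups did not overlap for any of these 3 genes, as for 64.9% of all tested genes.

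Among basic helix-loop-helix factors, 17 of 55 tested members were higher and 19 lower (median log2 fold change -0.09). The hypoxia-inducible factors, whose alpha subunits pair with ARNT, moved in opposite directions. Hif1a, the ubiquitous oxygen-regulated subunit, fell from 884, 942 and 829.5 to 186, 289 and 181 CPM (-2.02 ± 0.22), the largest loss of CPM in the class. Epas1, the HIF-2α subunit, rose from 10.6, 15.6 and 11.2 to 83, 47.8 and 67.4 CPM (2.41 ± 0.23), and Hif3a, the third alpha subunit, was nearly silent at day 0 and is described with the silent genes below. Arnt2, a partner subunit, fell from 8.28, 8.79 and 6.68 to 0.436, 1.46 and 0.226 CPM (-3.47 ± 0.55), and Ahr, the dioxin receptor of the same domain family, from 32.3, 23.7 and 30.4 to 2.27, 1.95 and 1.3 CPM (-3.97 ± 0.25). Srebf1, the sterol-regulated activator of lipogenesis, had the largest gain in CPM of all transcription factors, from 131, 133 and 149 to 969.6, 741 and 1079.8 (2.75 ± 0.17); its paralog Srebf2, which drives cholesterol synthesis, fell (-0.92 ± 0.22). Arnt2 stood at -4.57 without day 4 replicate 2 (log2 scale).

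SOX factors also moved in both directions. Sox4, Sox11 and Sox9, factors of progenitors and of cartilage, fell (-2.35, -2.31 and -1.35), with Sox4 going from 259, 265 and 306 to 36.9, 90.9 and 34.4 CPM. Sox18 rose from 0, 0.279 and 0.0276 to 2.06, 2.26 and 2.96 CPM (4.56 ± 0.77), Sox7 from 0, 0.124 and 0.248 to 1.95, 3.88 and 3.1 CPM (4.51 ± 0.62) and Sox6 from 0.122, 0.217 and 0.0828 to 1.42, 1.07 and 1.47 CPM (3.22 ± 0.38). Sox7 and Sox18 are known from endothelium. Of the 10 endothelial markers listed, 7 were tested, 0 were higher and 2 lower (5 lower without day 4 replicate 2), 6 stayed under 1 CPM in every library, and their summed level ran from 20.4 to 28.2 CPM at day 0 and from 6.26 to 20.3 CPM at day 4. Sox4 stood at -2.95 without day 4 replicate 2, and Sox18 at 7.08 without day 0 replicate 2, and Sox7 at 5.52 without day 0 replicate 3 (log2 scale).

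Forkhead, ETS and homeobox families had more members lower than higher. Of 20 forkhead factors 13 were lower and 1 higher: Foxo1, the insulin-regulated factor, rose from 15.3, 13 and 15.8 to 98.9, 52.8 and 101 CPM (2.52 ± 0.24), while Foxf1, a mesenchymal factor, fell from 8.95, 6.65 and 7.07 to 0.582, 1.9 and 0.733 CPM (-2.81 ± 0.48) and Foxp1 fell (-1.52 ± 0.15). Of 18 ETS factors 12 were lower and 3 higher, with Etv4, which acts behind FGF signalling, at -3.95 and Etv3, a repressor, at 2.61. Of 57 homeobox factors outside the Hox clusters 30 were lower and 8 higher (13 higher without day 4 replicate 2 and day 8 replicate 3). Gbx2 fell from 4.75, 3.71 and 1.93 to 0.0582, 0.11 and 0.0282 CPM (-5.64 ± 0.68), and the limb mesenchyme factor Prrx1 from 428, 452 and 414 to 199, 249 and 197 CPM (-1.01 ± 0.16). Within the Hox clusters 13 of 27 were lower and 4 higher. The rises lay in the A cluster, with Hoxa4 at 2.43 and Hoxa9 at 1.89, against -2.32 for Hoxb9 and -1.51 for Hoxc11. Foxf1 stood at -3.51 without day 4 replicate 2 (log2 scale).

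Factors of other families moved in both directions. Runx1, a factor of blood and mesenchymal progenitors, fell from 57.5, 52.1 and 52.9 to 4.88, 5.04 and 1.47 CPM (-3.83 ± 0.40), and its relative Runx2, the bone regulator, fell as well (-1.42 ± 0.18). The immediate early factor Egr3 fell from 2.53, 5.54 and 2.82 to 0.0872, 0.605 and 0.282 CPM (-3.46 ± 0.56). Of the AP-1 family, Junb fell (-1.67 ± 0.15), as did Fosl2 (-1.4 ± 0.19), whereas Fosl1 rose from 12.5, 17.5 and 11 to 121, 23.5 and 90.8 CPM (2.52 ± 0.49). Tead2, a partner of the Hippo effectors YAP and TAZ, fell (-2.16 ± 0.32), and Smad3 and Smad7, which relay and damp TGF-beta signals, fell too (-1.3 and -1.84). Klf9, a glucocorticoid-responsive factor, rose from 42.7, 46.7 and 40.8 to 173, 149 and 163 CPM (1.9 ± 0.14), and Zfp423, a preadipocyte factor, from 3.23, 4.09 and 2.84 to 17.9, 13.7 and 19.5 CPM (2.33 ± 0.19). Of the 307 numbered zinc finger genes that were tested, 33 were higher (10.75%, against 29.8% of all tested genes). Another 79 were lower (25.7%, against 28.4%). Egr3 stood at -4.26 without day 4 replicate 2 (log2 scale).

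**Figure D2:**
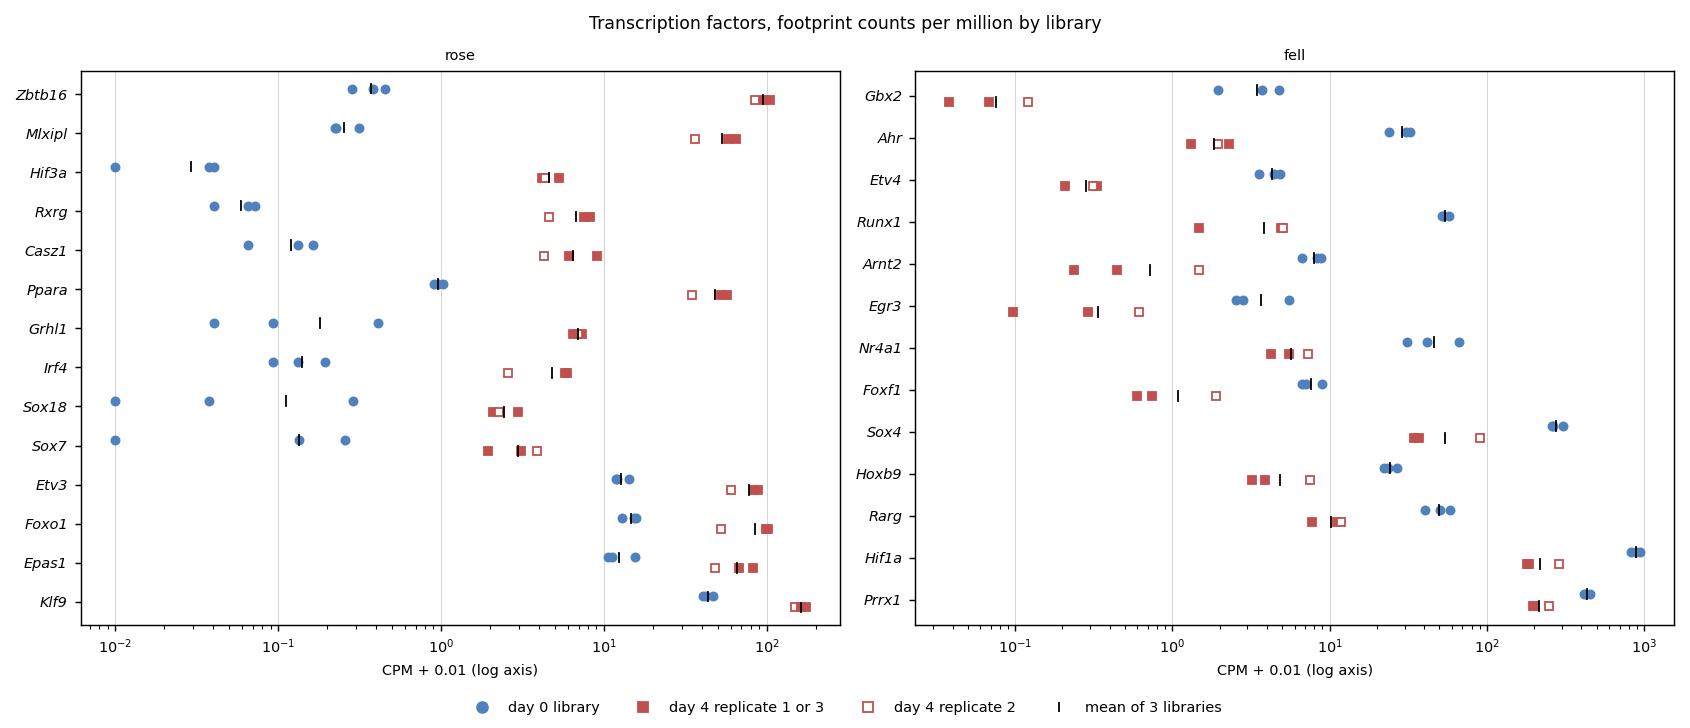
CPM plus 0.01 on a log axis in each day 0 library (blue circles) and each day 4 library (red squares, open for replicate 2) for transcription factors that rose (left) or fell (right), with a black tick at the mean of 3 libraries. The 14 factors on the left have all day 4 libraries above all day 0 libraries, and the 13 on the right have them below. The rule that named genes required such separation, which 64.9% of all tested genes had.

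Within most receptor families some members rose while others fell. Next to the fatty acid receptor Cd36, itself a known fat cell gene, the largest rise was in Acvr1c (ENSMUSG00000026834), the type I receptor ALK7 of the TGF-beta family, from 0.0305, 0.155 and 0.193 to 47.3, 15.1 and 41.1 CPM (8.03 ± 0.58, edgeR adjusted p = 3.04e-06). In the same family 12 of 16 tested members fell, among them Bmpr1b from 23.5, 18.8 and 18.1 to 1.57, 1.87 and 0.395 CPM (-3.97 ± 0.43), the coreceptor Eng (-1.75 ± 0.34), Acvr1 (-1.69 ± 0.15) and Tgfbr1 (-0.88 ± 0.18). The ligands and antagonists of the family moved mostly down as well, with 18 of 35 lower and 5 higher. The BMP antagonist Grem1 fell from 61.1, 62.4 and 93.9 to 2.21, 2.12 and 0.931 CPM (-5.37 ± 0.35) and the activin subunits Inhba and Inhbb fell (-4.39 and -2.44), while Bmp8a rose by 2.0 ± 0.35. Inhbb stood at -3.47 without day 4 replicate 2 (log2 scale).

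Several receptors for pituitary and gut hormones rose from low levels. Mc5r, a melanocortin receptor, rose from 0.183, 0.0619 and 0.166 to 45.8, 17.9 and 30.7 CPM (7.8 ± 0.54), and Mc2r, the ACTH receptor, from 0, 0.0929 and 0.0276 to 4.54, 2.78 and 4.37 CPM (6.5 ± 0.51). Mrap, the accessory protein that Mc2r needs to reach the surface, rose from 2.13, 2.82 and 1.13 to 201, 141 and 183 CPM (6.44 ± 0.30). The thyrotropin receptor Tshr rose from 0.0914, 0.217 and 0.414 to 19.7, 10 and 19.8 CPM (6.05 ± 0.42), the prolactin receptor Prlr from 1.8, 1.83 and 2.4 to 72.7, 50.5 and 80.8 CPM (5.08 ± 0.28), and Npr1, the receptor for atrial natriuretic peptide, from 0.487, 0.959 and 0.828 to 111, 47.7 and 93.7 CPM (6.79 ± 0.40). The secretin receptor Sctr (5.6 ± 0.53) and the GIP receptor Gipr (5.65 ± 0.82) rose from lower counts. Against these, the endothelin receptor Ednrb fell from 10.4, 15.1 and 11.1 to 0.64, 0.413 and 0.0282 CPM (-5.07 ± 0.54), whereas Ednra did not pass the same edgeR test (-0.05 ± 0.18, adjusted p = 0.82). The thrombin receptor F2r fell from 264, 229 and 225 to 37.9, 48.3 and 28.2 CPM (-2.65 ± 0.20), and the vasopressin receptor Avpr1a (-2.36 ± 0.32) and the R-spondin receptor Lgr5 (-3.16 ± 0.34) fell too. Of the receptors for peptide and protein hormones that couple to G proteins, 11 of 37 were higher and 15 lower. These shares were 29.7% and 40.5%, against 29.8% and 28.4% of all tested genes. Mc2r stood at 7.76 without day 0 replicate 2, and Tshr at 6.72 and Sctr at 6.78 without day 0 replicate 3, and Gipr at 6.53 without day 0 replicate 1, and Ednrb at -5.75 without day 4 replicate 1 (log2 scale).

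Receptors for small molecules moved in both directions. Adora1, the adenosine receptor that couples to the inhibitory G protein, rose from 0.122, 0.155 and 0.11 to 28.2, 6.49 and 17.3 CPM (7.04 ± 0.70), while Adora2a and Adora2b, which couple to the stimulatory G protein, fell (-3.94 and -2.38). Adra2a, the alpha-2A adrenergic receptor, fell from 24.8, 22.1 and 14.6 to 0.872, 1.46 and 0.367 CPM (-4.5 ± 0.44), against a rise of 5.59 ± 0.51 for Adrb3, a beta-adrenergic receptor. The fatty acid receptors Ffar4 and Ffar2 and the hydroxy-acid receptors Hcar1 and Hcar2 rose by 6.78, 6.36, 6.28 and 5.91, whereas of 15 receptors for lysophosphatidic acid, sphingosine-1-phosphate and prostanoids 8 were lower and 2 higher, with Lpar2 at -2.7, S1pr2 at -1.75 and Ptger4 at -1.78. The orphan receptor Gprc5c rose from 0.244, 0.0619 and 0.193 to 29.9, 8.2 and 24.4 CPM (6.93 ± 0.60). Adgrg2, an adhesion receptor, rose from 1.71, 1.15 and 1.71 to 44.4, 46.1 and 48.1 CPM (4.92 ± 0.18), and Adgra2 fell from 162, 187 and 175 to 24.4, 63.5 and 31.5 CPM (-2.13 ± 0.35).

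Guidance receptors, which read semaphorins, netrins and slits, were lower for 12 of 17 tested members and higher for 2 (1 higher without day 0 replicate 1 or 3). Plxnc1 fell from 7.52, 9.13 and 14.4 to 0.32, 0.275 and 0.169 CPM (-5.33 ± 0.41), Plxna4 from 33.6, 33.6 and 28.4 to 1.54, 3.99 and 0.564 CPM (-3.96 ± 0.61) and Robo1 fell too (-1.95 ± 0.44), and Plxnd1 rose slightly (0.80 ± 0.19). Of their ligands, 17 of 33 semaphorins, netrins, slits and ephrins were lower and 6 higher. Sema7a, the ligand of plexin C1, fell from 24.9, 31.4 and 39.1 to 2.44, 5.09 and 3.3 CPM (-3.13 ± 0.28) and Slit2 fell too (-2.21 ± 0.45). Sema3g went the other way, from 0.457, 0.526 and 0.552 to 38.1, 9.08 and 23.3 CPM (5.51 ± 0.55), and Sema4a rose by 3.79 ± 0.44. Plxna4 stood at -4.92 and Robo1 at -2.8 without day 4 replicate 2 (log2 scale).

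Receptor tyrosine kinases were lower for 21 of 40 and higher for 10. The ephrin receptor Epha4 fell from 50.2, 38.2 and 62.7 to 2.06, 6.14 and 1.3 CPM (-3.99 ± 0.50), and Ephb3, Ptk7 and Ror2 fell (-2.81, -2.62 and -2.37). Pdgfrb, the platelet-derived growth factor receptor of mural and stromal cells, fell from 1570.1, 1543 and 1649 to 241, 545 and 242 CPM (-2.21 ± 0.30). The insulin receptor Insr rose from 67.2, 67 and 68.2 to 296, 189 and 254 CPM (1.87 ± 0.15), and its closest relative, the IGF-1 receptor Igf1r, fell from 122, 133 and 149 to 36.2, 68.8 and 36.1 CPM (-1.52 ± 0.23). Ntrk2, the receptor of BDNF, rose from 4.05, 5.08 and 11.3 to 36.1, 32.2 and 65.6 CPM (2.7 ± 0.49), while Bdnf itself fell (-2.27 ± 0.26). Met, the receptor of hepatocyte growth factor, rose by 2.32 ± 0.15, and its ligand Hgf fell (-2.31 ± 0.25). Epha4 stood at -4.9 without day 4 replicate 2, and Ntrk2 at 3.29 without day 0 replicate 3 (log2 scale).

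Cytokine receptors were more often lower than higher (22 and 12 of 51), and in the TNF receptor family 11 of 19 were lower and 0 higher, with 7 lower without day 0 replicate 1, day 4 replicate 1 or day 4 replicate 3. Il1rl1, the receptor of interleukin-33, fell from 50.4, 34.9 and 99.3 to 2.44, 5.75 and 0.62 CPM (-4.38 ± 0.76), and Il33 itself from 14.1, 11.6 and 21 to 0.552, 0.385 and 0.451 CPM (-5.06 ± 0.61). Il6st, the shared gp130 subunit, fell from 837, 869 and 793 to 263, 476 and 262 CPM (-1.32 ± 0.22), together with Osmr (-1.7 ± 0.28) and with the ligands Il6 and Lif (-4.8 and -2.84). The interferon gamma receptor subunits moved apart, Ifngr1 up from 64, 59.1 and 61.1 to 359.7, 254 and 353 CPM (2.39 ± 0.15) and Ifngr2 down (-0.70 ± 0.17). Tnfrsf1b fell (-1.96 ± 0.23). Of the sorting receptors, Sort1 rose from 14.2, 15.9 and 16.3 to 477, 404 and 544 CPM (4.94 ± 0.15) and Sorl1 from 2.86, 2.63 and 2.62 to 199.8, 31.7 and 148 CPM (5.54 ± 0.60), while Sorcs2 fell from 109, 131 and 132 to 10.6, 8.7 and 5.36 CPM (-3.92 ± 0.46). Il1rl1 stood at -5.33 and Il6 at -5.58 without day 4 replicate 2, and Lif at -3.48 without day 4 replicate 1 (log2 scale).

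Of 41 scavenger and pattern receptors 13 were higher and 13 lower (31.7% each), near the shares over all tested genes (29.8% and 28.4%). Scara5, a ferritin receptor, rose from 1.71, 1.8 and 5.38 to 145, 135 and 181 CPM (5.68 ± 0.49), and Scarb1, the HDL receptor, from 30.3, 30.9 and 26.2 to 352, 316 and 384 CPM (3.59 ± 0.14). The myeloid lectins Clec10a and Siglec1 rose from few counts (5.39 and 3.5), and Siglecg fell (-3.41). All 12 listed macrophage markers were tested, 0 were higher and 1 (Cd14) was lower (0 to 2 lower with 1 library left out), and their summed level ran from 74.4 to 145.9 CPM at day 0 and from 76.4 to 107.0 CPM at day 4. Mrc2, a collagen-internalising receptor of fibroblasts, fell from 1646, 1776 and 1881 to 316, 605 and 319 CPM (-2.1 ± 0.29). Scara5 stood at 6.45 and Clec10a at 4.8 without day 0 replicate 3, and Clec10a at 9.01 without day 0 replicate 2, and Siglecg at -4.53 without day 4 replicate 2 (log2 scale).

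**Figure D3:**
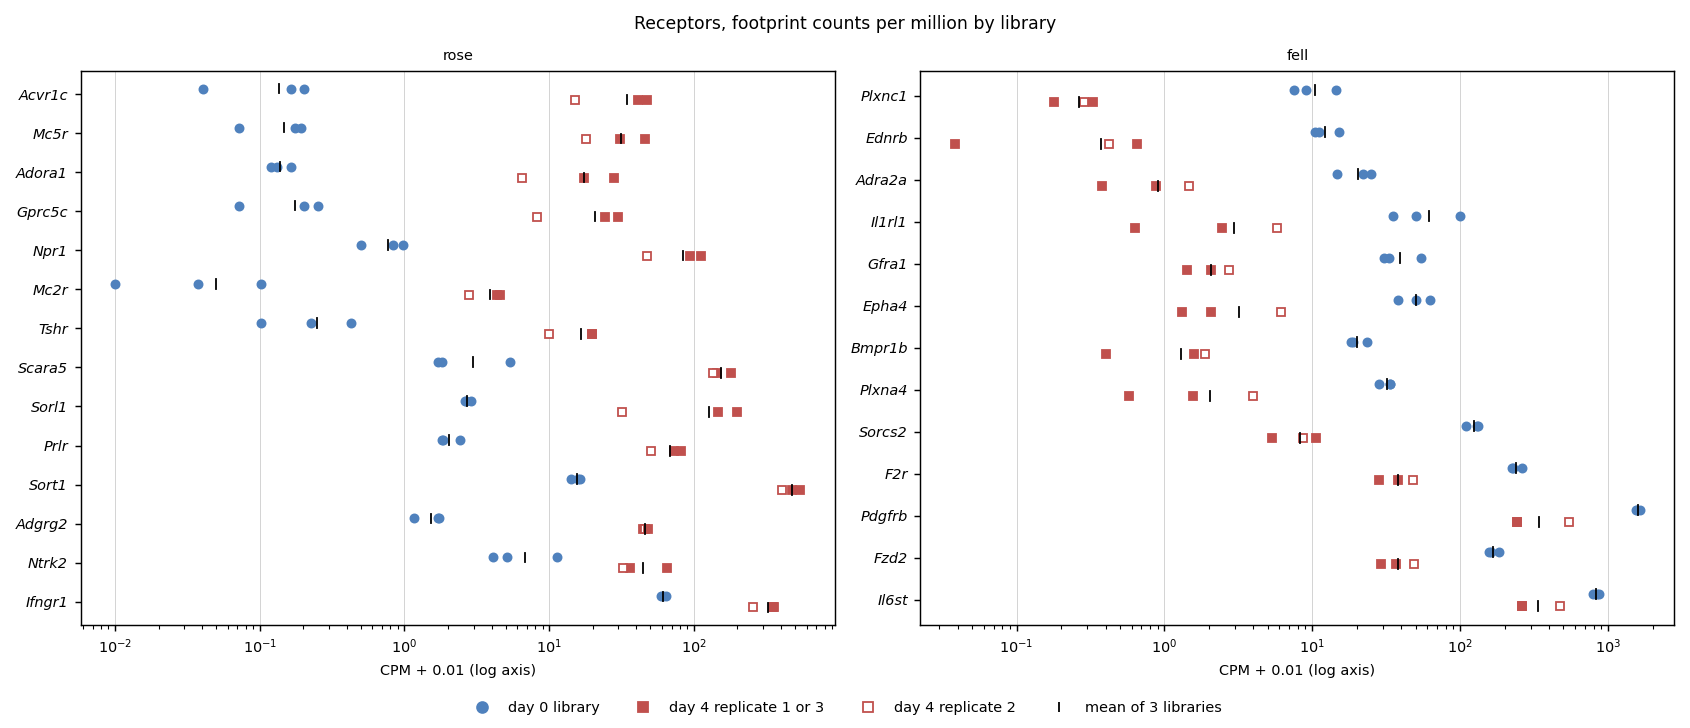
CPM plus 0.01 on a log axis in each library for receptors that rose (left) or fell (right) from day 0 (blue circles) to day 4 (red squares, open for replicate 2), with a black tick at the mean of 3 libraries. The 14 receptors on the left and the 13 on the right have no overlap between the libraries of both days. The rule that named genes required this, and it held for 64.9% of all tested genes.

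Transporters and channels held a larger share of all footprints at day 4: 2.30%, 2.15% and 2.31% of counts against 1.62%, 1.60% and 1.59% at day 0 (exact permutation test over libraries, two-sided p = 0.1, the smallest that 3 against 3 allow). The share of the listed secreted proteins went from 12.5%, 13.2% and 12.7% to 6.75%, 8.94% and 7.2%, with the same p in the same exact test. This list leaves out Col1a1 and fibronectin (Fn1), so it covers only a part of what the cells secrete. The difference in its mean share, -5.14 percentage points, was -2.66 without the 20 genes with the most counts. The larger share of transporters rested in large part on 1 gene. Slc1a5, the glutamine carrier ASCT2, accounted for 17.4% of the transporter counts at day 4. It rose from 330.5, 331 and 318 to 4329, 3683 and 4647 CPM (3.69 ± 0.17). Amino acid carriers went from a mean of 0.292% to 0.597% of all counts, and Slc1a5 held 65.9% of their day 4 counts. By calls the transporter class was even, with 160 higher and 160 lower (median log2 fold change -0.11).

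Other amino acid carriers moved in both directions. Slc36a2, a proton-coupled carrier of small amino acids, rose from 3.26, 3.4 and 3.17 to 592, 289 and 626 CPM (7.26 ± 0.33, edgeR adjusted p = 2.30e-07), Slc6a13, a GABA and taurine carrier, from 0.0609, 0.031 and 0.0552 to 7.5, 3.99 and 7.67 CPM (6.92 ± 0.43), and Slc7a10, a carrier of small neutral amino acids such as serine and alanine, from 0.152, 0.155 and 0.138 to 22.1, 7.02 and 22 CPM (6.81 ± 0.56). Of the 38 amino acid carriers 12 were higher and 19 lower. Those that fell included Slc6a17 (-2.88 ± 0.46), Slc38a1 (-2.59 ± 0.25), Slc7a5 (-1.21 ± 0.13) and Slc38a2, which went from 584, 646 and 706 to 353, 445 and 357 CPM (-0.74 ± 0.13). Slc6a17 stood at -3.75 without day 4 replicate 2 (log2 scale).

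Mitochondrial carriers of the SLC25 family were the transporter family with the largest share of higher members, 34 of 49 with 7 lower (4 lower without day 0 replicate 1 or day 4 replicate 3). Slc25a34, a carrier whose substrate is not settled, rose from 0.305, 0.248 and 0.0828 to 35.1, 12.9 and 41.4 CPM (7.14 ± 0.59). The mitochondrial pyruvate carrier subunits Mpc1 and Mpc2, which are not SLC25 proteins, rose by 4.1 and 3.49. Slc25a24, the calcium-regulated ATP carrier, fell from 59.8, 59.3 and 57.3 to 10.8, 24.3 and 10.3 CPM (-1.96 ± 0.31). Of the ABC transporters 14 of 28 were higher and 4 lower (7 lower without day 4 replicate 2, and 2 without day 0 replicate 3, day 4 replicate 1 or day 4 replicate 3), with the peroxisomal fatty acid importer Abcd2 going from 4.29, 4.27 and 6.68 to 95.9, 139.9 and 153 CPM (4.67 ± 0.26) and the sterol exporter Abca1 from 324, 424 and 515 to 968, 821 and 988 CPM (1.14 ± 0.17). Slc27a1, the fatty acid transport protein FATP1, rose from 21.5, 29.2 and 25.6 to 644, 364 and 751 CPM (4.53 ± 0.32), and its paralog Slc27a6 fell from 41.5, 48.8 and 61.1 to 4.42, 7.76 and 5.75 CPM (-3.08 ± 0.44). The glycerol channel Aqp7 rose from 1.01, 1.45 and 1.13 to 176, 126 and 209.9 CPM (7.16 ± 0.28).

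Channels and exchangers had members that rose and members that fell. Kcnk3, the potassium leak channel TASK-1, rose from 0.305, 0.248 and 0.304 to 72.7, 31.6 and 54.6 CPM (7.52 ± 0.46). The calcium-activated channel Kcnma1 fell from 14.7, 15.2 and 14.4 to 1.16, 0.578 and 0.846 CPM (-4.1 ± 0.34), and of 30 potassium channel genes 14 were lower and 7 higher. The proton channel Otop1 rose from 0.0305, 0.031 and 0.0552 to 4.13, 2.26 and 4.68 CPM (6.42 ± 0.58). Piezo2, a mechanosensitive channel, fell from 37.5, 40.4 and 25.5 to 1.98, 1.68 and 0.338 CPM (-4.69 ± 0.48), the sodium-calcium exchanger Slc8a1 from 47.3, 40.4 and 36.8 to 3.11, 4.6 and 1.72 CPM (-3.72 ± 0.39) and the gap junction gene Gjb2 from 21.1, 9.59 and 21.5 to 1.83, 0.193 and 0.508 CPM (-4.37 ± 0.64). The calcium sensors of the endoplasmic reticulum moved apart: Stim1 rose from 39.7, 37.3 and 37.3 to 146, 136 and 135 CPM (1.87 ± 0.09) and Stim2 fell (-0.91 ± 0.16). Gjb2 stood at -5.62 without day 4 replicate 1 (log2 scale).

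Of 29 metal carriers 16 were lower and 6 higher. The iron exporter Slc40a1 fell from 8.41, 18.5 and 22.2 to 2.01, 1.38 and 3.55 CPM (-2.82 ± 0.42), and 8 of 10 zinc importers of the SLC39 family were lower, by smaller steps, such as Slc39a14 (-0.66 ± 0.13). Cnnm2, a magnesium transport protein, rose from 10.4, 13.3 and 14.3 to 176, 77.5 and 145 CPM (3.39 ± 0.28). The riboflavin carrier Slc52a3 fell from 4.66, 4.61 and 4.42 to 0.291, 0.193 and 0.197 CPM (-4.31 ± 0.31), and Slc13a4, a sulfate carrier, rose from 0.0305, 0 and 0.11 to 5.41, 2.31 and 5.1 CPM (6.35 ± 0.67). The chloride channel regulator Clca3a1 rose from 9.62, 7.64 and 13 to 37.5, 200.03 and 63.6 CPM (3.31 ± 0.57), with day 4 replicate 2 far above the other libraries of its day. Slc13a4 stood at 7.82 without day 0 replicate 3, and Clca3a1 at 2.32 without day 4 replicate 2 (log2 scale).

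**Figure D4:**
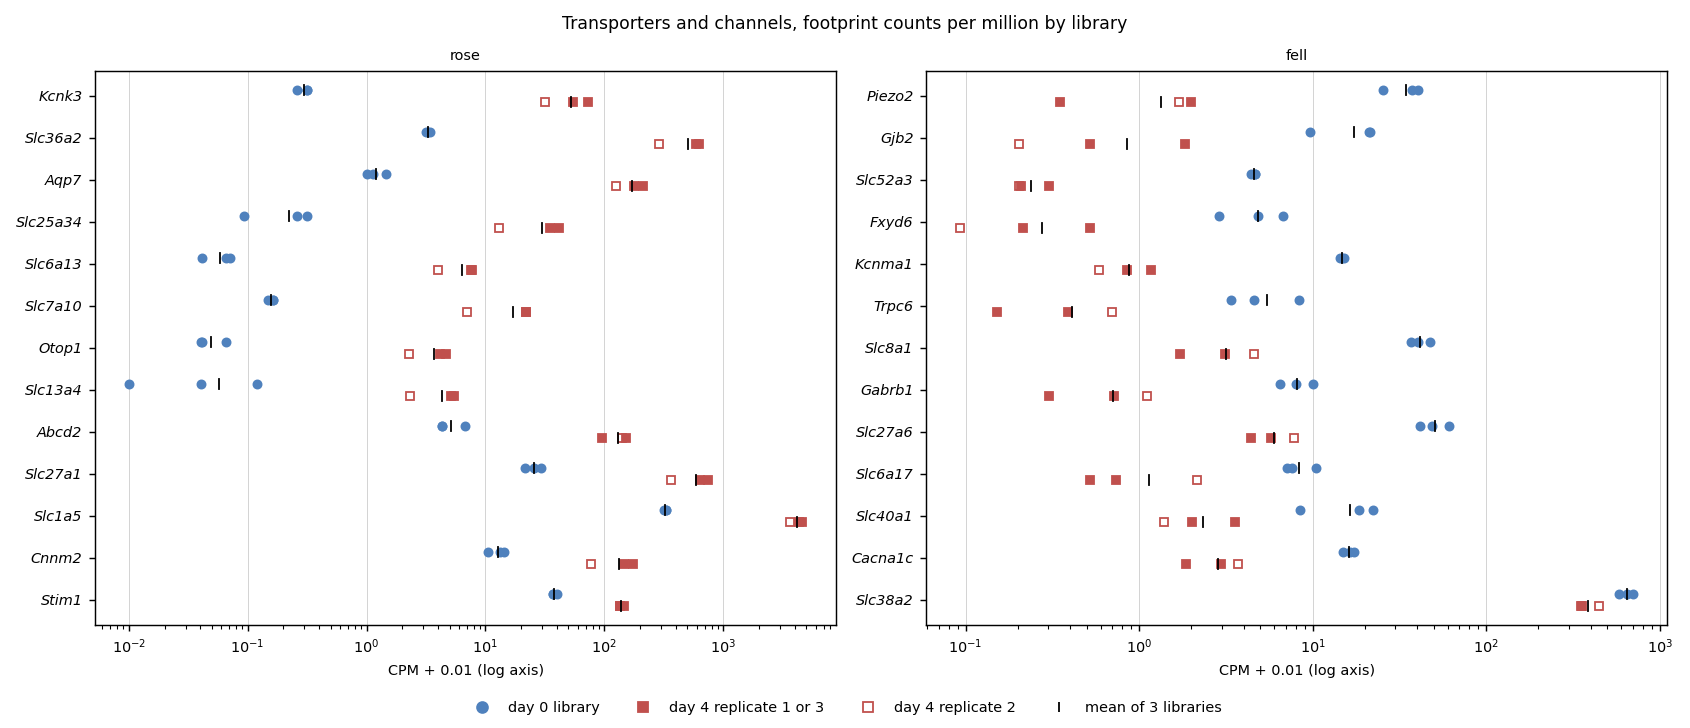
CPM plus 0.01 on a log axis in each library for transporters and channels that rose (left) or fell (right) from day 0 (blue circles) to day 4 (red squares, open for replicate 2), with a black tick at the mean of 3 libraries. The 13 genes of each panel have no overlap between the libraries of both days. The rule that named genes required this, and it held for 64.9% of all tested genes.

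Among secreted proteins the family of apolipoproteins, lipocalins and plasma carriers had the largest share of higher members, with 21 of 28 tested members higher, 18 of them at least 4-fold, and 1 lower (3 lower without day 4 replicate 2). Over all tested genes 9.05% were at least 4-fold higher and 5.38% at least 4-fold lower. Orm1, the acute-phase protein orosomucoid, rose from 0.0914, 0.0619 and 0.0276 to 19.5, 11.7 and 27.3 CPM (8.28 ± 0.51, edgeR adjusted p = 1.14e-06), haptoglobin (Hp), the hemoglobin scavenger, from 12.5, 15.8 and 11.8 to 3064, 2589 and 4142 CPM (7.93 ± 0.27), and the iron-siderophore binder Lcn2 from 0.122, 0.279 and 0.166 to 51.1, 40.1 and 62.8 CPM (8.07 ± 0.47). Apoc3, an apolipoprotein of triglyceride-rich particles, rose from 0.0305, 0.0929 and 0.0828 to 26.9, 6.58 and 22.6 CPM (8.01 ± 0.68). The metal-binding plasma proteins Trf and Cp (transferrin and ceruloplasmin) rose by 3.73 and 2.91. Apob, the scaffold of very low density lipoprotein, fell from 8.01, 6.78 and 3.62 to 0.407, 0.881 and 0.169 CPM (-3.64 ± 0.57). Apob stood at -4.39 without day 4 replicate 2 (log2 scale).

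Serpins of the A3 cluster rose with them: Serpina3m from 0.0305, 0.031 and 0.11 to 16, 11.5 and 17 CPM (7.89 ± 0.64), Serpina3c from 0.274, 0.248 and 0.248 to 24.7, 39.6 and 38.7 CPM (7.04 ± 0.31) and Serpina3n from 10.5, 9.47 and 14.4 to 552, 605 and 638 CPM (5.7 ± 0.45). The A3 genes and the orosomucoid genes are near-identical copies, so short footprints may be shared among them and the values of single members are uncertain. Agt, the angiotensin precursor, rose from 17.7, 33.5 and 15.1 to 2565, 1266 and 2559 CPM (6.59 ± 0.43). F13a1, a coagulation transglutaminase subunit, rose from 0.122, 0.124 and 0.0828 to 9.86, 3.36 and 14.4 CPM (6.36 ± 1.25), and the terminal complement component C7 from 0.487, 0.588 and 1.05 to 26, 5.37 and 39.9 CPM (5.05 ± 0.88). Serpina3m stood at 8.76 without day 0 replicate 3, and C7 at 4.45 without day 4 replicate 3 (log2 scale).

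Day 8 levels of these secreted proteins were often below those of day 4. Of the 66 secreted proteins that were at least 4-fold higher at day 4, 28 (42.4%) had a day 8 mean under 50% of their day 4 mean, against 241 of 1332 (18.1%) over all genes at least 4-fold higher; this is a description without a test. Hp went from 3265 ± 796 CPM at day 4 to 667 ± 90.4 CPM at day 8 (mean ± SD, n = 3), Agt from 2129.9 ± 749 to 449 ± 79.4, Serpina3n from 598 ± 43.5 to 113 ± 74.2, and Apoc3 from 18.7 ± 10.7 to 3.11 ± 0.522. Sema3g went the other way, from 23.5 ± 14.5 to 137 ± 32 CPM.

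Growth factors changed member by member. Nrg4, a neuregulin released by brown fat, rose from 0.0609, 0.0929 and 0.0552 to 5.58, 2.12 and 6.57 CPM (6.03 ± 0.56), and Nrg1 fell from 19.1, 26.4 and 22.5 to 1.34, 1.02 and 0.649 CPM (-4.5 ± 0.40). Of the fibroblast growth factors, Fgf21 and Fgf10 rose by 2.76 and 2.26, and Fgf7, Fgf2 and Fgf18 fell (-2.84, -2.13 and -2.38). Klb, the coreceptor that Fgf21 requires, rose from 0.579, 0.526 and 0.635 to 157, 94.4 and 162 CPM (7.88 ± 0.26), while Fgfr1, its signalling partner, fell (-0.82 ± 0.11). Angpt1, a ligand of the receptor TIE2, rose by 2.52 ± 0.27, and Angpt4 fell from 116, 138 and 96.7 to 6.43, 7.15 and 1.86 CPM (-4.5 ± 0.48). Ptn, the growth factor pleiotrophin, fell from 703, 619 and 804 to 37.4, 68 and 17.7 CPM (-4.11 ± 0.64), and 9 of 14 neurotrophic factors were lower with 1 higher. Fgf7 stood at -3.56 and Fgf18 at -3.04 without day 4 replicate 2 (log2 scale).

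Wnt, cytokine and chemokine genes were more often lower than higher. Of 17 Wnt ligands and Wnt antagonists 10 were lower and 0 higher, with Sfrp4 going from 10.1, 11.2 and 5.55 to 0.552, 0.55 and 0.62 CPM (-3.95 ± 0.40) and the abundant Sfrp1 falling (-2.83 ± 0.31). Of 20 interleukins and other cytokines 13 were lower and 0 higher (1 higher without day 4 replicate 2), and of 22 chemokines 13 were lower and 3 higher (1 higher without day 0 replicate 3 or day 4 replicate 3). Cxcl14 fell from 98.9, 71 and 49.8 to 3.66, 2.34 and 0.451 CPM (-5.09 ± 0.67), and Ccl2 and Cxcl12, which attract monocytes and progenitors, fell too (-3.94 and -2.36). Tnfrsf11b, the secreted decoy osteoprotegerin, fell from 14.2, 16.7 and 11.7 to 0.698, 0.385 and 0.197 CPM (-5.05 ± 0.40). Scg2, a granin of secretory vesicles, fell from 124, 122 and 309 to 5.38, 9.96 and 4.06 CPM (-4.84 ± 0.68). Cxcl14 stood at -5.7 without day 4 replicate 1, and Ccl2 at -5.0 without day 4 replicate 2, and Scg2 at -4.25 without day 0 replicate 3 (log2 scale).

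Matricellular proteins, which sit in the matrix and tune cell contacts, were lower for 21 of 37 and higher for 5. Thbs1, thrombospondin 1, had the largest loss of CPM in the class, from 22513, 23999.5 and 25729.6 to 1344, 2810.4 and 749 CPM (-3.88 ± 0.46), and Thbs2 fell from 8397, 10254 and 9446 to 1483, 2197 and 1173 CPM (-2.53 ± 0.28). Ccn3 and Ccn2 fell (-5.14 and -4.51). Sparcl1, also called hevin, rose from 3.9, 4.4 and 3.97 to 96.9, 131 and 90.2 CPM (4.69 ± 0.24). The tissue inhibitors of metalloproteinases moved apart: Timp3 fell from 1195, 845 and 1114 to 70.1, 81.1 and 30.2 CPM (-4.12 ± 0.47) and Timp4 rose by 3.34 ± 0.59. C1qtnf3, an adiponectin-related protein, fell from 124, 124 and 138 to 4.74, 5.67 and 1.44 CPM (-5.02 ± 0.77). Beside these falls, 5 of the 11 tested smooth muscle and pericyte markers were lower and 2 higher. Their summed level ran from 3947 to 5938 CPM at day 0, with 67.1% of these counts on Acta2, and from 240.4 to 525.1 CPM at day 4. The part of these markers in the falls was not tested. Thbs1 stood at -4.52 without day 4 replicate 2 (log2 scale).

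**Figure D5:**
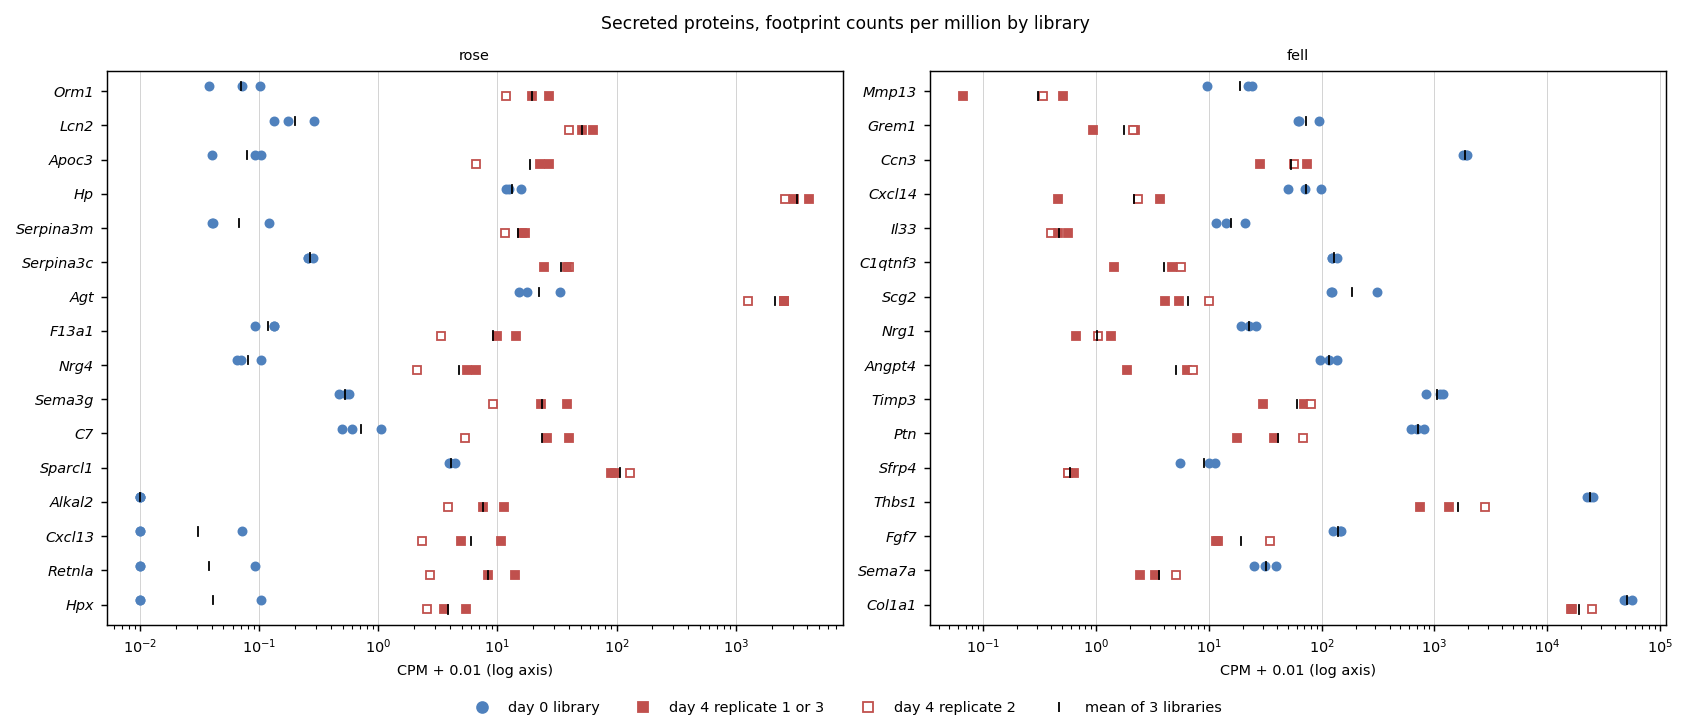
CPM plus 0.01 on a log axis in each library for secreted proteins higher (left) or lower (right) at day 4 (red squares, open for replicate 2) than at day 0 (blue circles), with a black tick at the mean of 3 libraries. Day 0 libraries of Alkal2, and some of Cxcl13, Retnla and Hpx, lie at 0.01 because they had 0 counts. Col1a1, on the right, is not in the list behind the class counts and shares.

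A set of genes was silent before induction. By the rule of at most 3 counts over the 3 day 0 libraries and at least 30 counts in every day 4 library, 38 genes were silent at day 0 and present at day 4, and 5 the other way round. The rule used these counts, so what follows describes the set without a test. Of the 38 genes 12 had 0 counts at day 0 and 28 are protein-coding by RefSeq. The secreted class, with 405 of the 14714 tested genes, held 9 of the 38, and the transcription factors, with 776, held 1 (Hif3a). None belonged to the receptor class, with 356 tested genes, or to the transporter class, with 454. Classes of these sizes would hold few of 38 genes, so these low counts are not read as a trait of the classes. Without day 4 replicate 2 the set had 56 genes, and without day 0 replicate 1, 2 or 3 it had 59, 59 and 56. Day 4 means ran from 0.942 to 25.7 CPM, and 27 of the 38 genes were lowest in day 4 replicate 2. At day 8, 8 of the 38 had a higher mean than at day 4. The rule itself asks for high day 4 counts, which favours lower day 8 means, so this count is not read as a trait of the set.

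Of the 38 genes 9 belong to the secreted class and 28 to none of the 5 classes. The split depends on the lists, which leave out Fga, described below. Retnla, the resistin-like protein RELMα, had 288, 98 and 497 counts in the day 4 libraries and a ratio of day 4 to day 0 of 281 (95.8 to 1365), where brackets give the exact interval for counting error. The heme scavenger hemopexin (Hpx) had 121, 92 and 192 counts and a ratio of 129 (43.8 to 628). Orm2, the second orosomucoid, had 0 counts at day 0 and 43, 38 and 80 at day 4, at least 17.1-fold higher against a floor of 3 counts per library. Apoc4 (at least 18.4-fold higher) and Fga, the fibrinogen alpha chain with 53, 103 and 46 counts and a ratio of 64.3 (21.7 to 314), were higher as well. Retnla, Hpx and Fga each had 3 counts at day 0.

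Alkal2, a ligand of the receptor ALK, had 0 counts at day 0 and 261, 138 and 403 at day 4, at least 85.2-fold higher against the floor of 3 counts per library, while its paralog Alkal1 fell (-4.74 ± 0.95; -8.83 without day 4 replicate 1, where only 0 counts are left). Cxcl13, a B cell chemoattractant, had 170, 84 and 378 counts at day 4 and a ratio of 302 (83.2 to 2496). Hif3a had 143, 158 and 189 counts and a ratio of 234 (64.4 to 1937). Adcy10, the bicarbonate-sensitive soluble adenylyl cyclase, had 107, 65 and 120 counts and a ratio of 92.9 (31.5 to 453), and Myrip, a linker between RAB27 and myosin, 333, 44 and 257 counts and a ratio of 303 (83.4 to 2504). Rbp7, a retinol carrier, had 0 counts at day 0 and 56, 100 and 72 at day 4 (at least 24-fold higher), and Fam107a, an actin-binding protein, 0 and 83, 62 and 95 (at least 25.5-fold higher). Fam107a, Cxcl13 and Retnla had means of 0.0373 ± 0.0323, 0.092 ± 0.0174 and 0.592 ± 0.435 CPM at day 8 (mean ± SD, n = 3). Of the 5 genes silent at day 4, Kcns1, a modulatory potassium channel subunit, is the only one that RefSeq lists as protein-coding, with a ratio of day 0 to day 4 of 48.9 (16.4 to 239.9).

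The 250 bases before the starts of the genes silent at day 0 were searched in RefSeq's promoter table (build GRCm38.p6, an earlier assembly than the one the counts use), which held 34 promoters of 26 of the 38 genes. The C/EBP motif TTGCNNAA, on either strand, was in 12 of the 34 promoters, which belong to 9 genes, against 9.56% of all 32851 promoters in the table. The TATA box TATAAA was in 7 of 34 on either strand against 12.4%, and in the direction of the gene in 5 of 34 against 7.59%. The other motifs were also searched on both strands. The glucocorticoid response element (an inverted repeat of its hexamer) was in 2 of 34, both starts of Fam107a that lie next to each other, against 0.387%. No match was found in these windows for the PPAR and RXR direct repeat (0.338% of all promoters), the E-box CACGTG (6.02%), the cyclic AMP response element TGACGTCA (1.55%) or its variant TGACGTAA (0.447%). The motifs were chosen with the gene set known, overlapping starts of a gene share sequence, and a match describes letters only.

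The promoters of 4 silent genes, with the matches in capitals, show where these letters lie. Each is 180 bases, 5′ to 3′ in the direction of the gene: Orm2 (chr4:63362269-63362448, plus strand), Retnla (chr16:48842429-48842608, plus strand), Cxcl13 (chr5:95956759-95956938, plus strand) and Fam107a (chr14:8309778-8309957, minus strand). Counted back from the start, the C/EBP motif began at -120 in Orm2, -134 in Retnla and -164 in Cxcl13, and the TATA box at -33, -30 and -46. In Fam107a the capitals mark the glucocorticoid element, which began at -120.
Orm2: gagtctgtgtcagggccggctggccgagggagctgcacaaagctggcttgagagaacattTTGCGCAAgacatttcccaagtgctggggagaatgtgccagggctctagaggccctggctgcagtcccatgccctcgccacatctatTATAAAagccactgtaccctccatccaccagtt
Retnla: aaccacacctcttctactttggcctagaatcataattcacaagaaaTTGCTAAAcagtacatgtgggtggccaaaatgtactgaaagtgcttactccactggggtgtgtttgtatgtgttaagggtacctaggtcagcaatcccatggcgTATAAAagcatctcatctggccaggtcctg
Cxcl13: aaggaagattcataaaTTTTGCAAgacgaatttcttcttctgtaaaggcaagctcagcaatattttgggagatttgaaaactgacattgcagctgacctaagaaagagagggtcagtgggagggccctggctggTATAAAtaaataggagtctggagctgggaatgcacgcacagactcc
Fam107a: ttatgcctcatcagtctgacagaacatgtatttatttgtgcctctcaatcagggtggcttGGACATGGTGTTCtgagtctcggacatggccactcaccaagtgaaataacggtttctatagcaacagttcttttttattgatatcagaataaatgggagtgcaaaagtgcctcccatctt

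Lists of markers for other cell types were read in the same way. Of 10 lymphocyte markers 4 were tested and 0 called, with sums of 12.8 to 15.5 CPM at day 0 and 12.9 to 15.4 CPM at day 4. Of 8 epithelial markers 1 was tested, Elf5 was at 0 in all 6 libraries, and the sums stayed between 0.320 and 1.18 CPM; 0 were lower, or 2 without day 4 replicate 2. Of 8 mesothelial markers 7 stayed under 1 CPM in every library and 1 (Krt18) was lower, with 0 higher (1 higher without day 0 replicate 3 or day 4 replicate 3). Their sums, nearly all from Krt19, ran from 29.2 to 48.2 CPM at day 0 and from 37.7 to 88.3 CPM at day 4. Of 10 Schwann cell and neuron markers 8 were tested, 2 (Erbb3 and Mbp) were higher and 2 (Tubb3 and Uchl1) lower, with sums of 60.2 to 81 CPM at day 0 and 14.6 to 23.7 CPM at day 4. Of 10 skeletal muscle markers 4 were tested, 1 (Actn3) was higher and 1 (Acta1) lower, with Myod1 at 0 and sums of 48.5 to 61 CPM at day 0 and 11.6 to 13.7 CPM at day 4. The part of these cell types in the results was not tested. Of 14 preadipocyte markers 7 were lower and 2 (Cd34 and Ly6a) higher (0 to 2 higher with 1 library left out), and their summed level ran from 77400 to 91900 CPM at day 0 and from 30140 to 42990 CPM at day 4, highest in replicate 2. The 10 fat cell markers were all higher, with sums of 312 to 385 CPM at day 0 and 39570 to 62210 CPM at day 4, lowest in replicate 2. Single genes held most of several sums. At day 0 Col1a1 held 62.0% of the preadipocyte counts, Acta1 91.6% of the skeletal muscle counts and Tubb3 74.7% of the Schwann cell and neuron counts. Tek held 68.4% of the endothelial counts at day 0, and Fabp4 63.6% of the fat cell counts at day 4.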

How the data were processed

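Ribosome footprints were counted per gene in 9 libraries, 3 each at day 0, day 4 and day 8. The authors deposited raw counts per gene, with no normalization; per the submitters' processing notes, reads were handled with cutadapt, HISAT2 and featureCounts on GRCm39, with versions and strand setting not given in the sources used here. Counts include 28536 genes at 0 in every library.

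Genes passing filterByExpr (minimum count 10) were fitted with edgeR 4.0.16 (TMM scaling, quasi-likelihood test, 1 coefficient per day, all 9 libraries), and p-values were adjusted by Benjamini-Hochberg over 14714 genes. Standard errors were derived from the fold change and the F statistic. A simulation drew counts with the fitted spread and changed few of the 14391 genes it tested. In it 60% of 95 genes changed 2-fold and 88.7% of 97 changed 4-fold were recovered, and 7.74% of calls were false. The real comparison called 58.2% of tested genes, so these rates do not carry over to its calls. Library totals of 30823028 to 38994892 set the precision, and intervals and floors cover counting error only.

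The members and gene lists were chosen with earlier results of these data known, and the lists were corrected for misassigned symbols after values were seen. Genes were named by rule: per class the 8 largest rises and falls and the 4 largest gains and losses in CPM, the largest rise and fall of each family, the 10 largest rises and falls and the 6 largest gains and losses over all genes outside the fat cell list, predicted genes and pseudogenes, and the 12 silent genes of each set with the highest level. Each needed a mean of at least 100 counts on the higher day and days that did not overlap. Further genes set beside these were chosen after their values were seen. Class shares were compared by an exact permutation test over libraries. The labels name no pairs, and same-numbered libraries did not deviate together (correlations 0.0595, -0.0494 and 0.0524), so replicate numbers were not used as pairs. With 3 libraries per day these correlations cannot settle whether libraries were paired. Symbols of 14378 tested genes matched RefSeq, which supplied gene types and promoter sequences. Alternatives covered scaling, filtering, other tests (DESeq2 and limma among them) and libraries left out. Some genes that the rule takes are not reported here.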

Additional observations from a re-analysis of the deposited data

How the results depend on the processing

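The counts of genes called higher and lower, in all and per class, stayed within 1.5 times of the reported counts under every alternative that was fitted. Called genes numbered 3722 higher and 5167 lower with library totals as the only scaling and 3826 and 5026 with upper quartile scaling, which moved the median log2 fold change of all genes to -0.17 and -0.14. Leaving out day 4 replicate 2 gave 4836 and 4773, and leaving it out together with day 8 replicate 3, chosen after seeing the data, gave 5003 and 4998. With only the 6 day 0 and day 4 libraries the counts were 4164 and 3808. With the replicate number as a block the counts were 4231 and 4059. The labels do not say whether the numbers pair the libraries. Of 3018 refits of the 189 genes taken by the naming rule, 3001 kept direction and call, 17 lost the call and 0 reversed. The losses fell on 7 of these genes, none of which is described here. Genes set beside them after their values were seen are not part of this count. The silent sets moved most with their cutoffs. Genes silent at day 0 numbered 12 when silent meant 0 counts, 99 at up to 10 counts, 96 when presence needed 10 counts and 9 when it needed 100, and 39 to 59 with 1 library left out. Genes silent at day 4 numbered 0, 17, 28 and 0 under the same cutoffs, and 5 to 9 with 1 library left out, 9 of them without day 4 replicate 2.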

Other observations

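Outside the 4 classes the largest rises included a cytoskeletal gene and metabolic enzymes. Map7d2, a microtubule-associated protein, rose from 0.183, 0.279 and 0.276 to 102, 89.4 and 118 CPM (8.69 ± 0.24), and Cyp2e1, a cytochrome P450, from 0.0609, 0.186 and 0 to 52.3, 18.4 and 27 CPM (8.62 ± 0.75). Pcx, the pyruvate carboxylase that feeds oxaloacetate, had one of the largest gains in level, from 52.3, 49.1 and 51.7 to 5028, 2179 and 4494 CPM (6.26 ± 0.33). Gys2, known as the liver glycogen synthase, was among the silent genes, with 1099, 480 and 1134 counts at day 4, while the paralog Gys1, chosen after its values were seen, had 99.3, 109 and 93 CPM at day 0 and 564, 272 and 586 CPM at day 4. Cyp2e1 stood at 9.97 without day 0 replicate 2, and Cyp2e1 at 8.01 without day 0 replicate 3 (log2 scale).

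Some matrix genes gained while others were lost. The basement membrane collagen Col4a1 rose from 2934, 2730.4 and 3425 to 7387, 8659 and 7375 CPM (1.37 ± 0.17) and Col6a3 from 2922, 2633 and 3493 to 6683, 7297 and 6338 CPM (1.17 ± 0.21). The fibrillar collagen Col1a1 fell from 47589.7, 48711 and 56886 to 16254, 24930.3 and 16492 CPM (-1.41 ± 0.34), and fibronectin (Fn1) from 26855, 23778 and 28173 to 5950.4, 12873 and 6076 CPM (-1.66 ± 0.38). Ptgs2, the inducible cyclooxygenase, fell from 48.8, 60.3 and 43.4 to 1.69, 1.46 and 0.423 CPM (-5.42 ± 0.38).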
